A study of Canis lupus familiaris with 30 samples.

Results

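The mitosis and kinetochore genes are the genes whose products build the centromere and kinetochore, run the spindle checkpoint and the mitotic kinases, form and move along the spindle, divide the cell and condense the chromosomes. Members were listed by role as 47 gene symbols, with no threshold on their values but with earlier results of these data known. Of these, 34 could be tied to a gene ID of the deposited expression matrix, which holds 32704 gene IDs. The other 13 were not analysed here: CENPH, CENPI, MAD2L1, PLK4, KIF2C, NUSAP1, ANLN, ECT2, PRC1, NUF2, NCAPH, SMC2 and CEP55. By role, 8 of 11 centromere and kinetochore genes, 10 of 12 kinases, checkpoint and anaphase genes, 8 of 11 spindle and motor genes, 4 of 7 cytokinesis genes and 4 of 6 genes of chromosome condensation and surface were found.

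When a cell enters mitosis, the kinetochore assembles on the centromere of each chromosome and captures spindle microtubules. The spindle checkpoint holds the cell until every kinetochore is attached, after which the anaphase-promoting complex triggers chromosome separation and a contractile ring divides the cell. Most of these genes are transcribed in G2 and mitosis, so that in a tissue their transcripts rise with the share of dividing cells, and Ki-67, the product of MKI67, is the usual histological stain for proliferation in lymphoma.

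RNA was sequenced from fine needle aspirates of enlarged lymph nodes of 15 dogs with lymphoma, each sampled at the initial timepoint, before chemotherapy, and again at the six-week timepoint, which gave 30 libraries. All dogs received the CHOP protocol, made up of cyclophosphamide, doxorubicin, vincristine (a tubulin-binding drug) and prednisone, and a prednisone injection before enrolment was allowed. There was no untreated group, so time and treatment cannot be told apart. By the immunophenotype label, 7 dogs were B-Cell, 3 were T-Cell and 5 were Unknown. An aspirate holds every cell of the node, and in such bulk samples fewer cells of a type and less RNA per cell cannot be told apart.

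Total counts ran from 4318394 to 43413353 per library, the lowest in dog 036 at 6 weeks. In 9 dogs the deposited counts followed the deposited FPKM (fragment counts scaled by transcript length and by the depth of the library) under the same gene ID. In the other 6 dogs (024, 027, 028, 029, 030 and 035) they did not, so FPKM was used for all levels, with the counts of the 9 dogs as an alternative. Markers of 2 dogs went against their label at the initial timepoint. Dog 029, labelled B-Cell, had a mean log2(FPKM+1) of 5.74 over 9 T-cell markers and 4.40 over 3 B-cell markers. Dog 038, labelled T-Cell, had 2.36 and 5.88, respectively. The comparisons between labels are therefore given with and without these 2 dogs. The symbols came from 4 gene lists that the study ordered by p-value, 2 of which rank change over time, and from each list at most the leading 1999 genes were used, so a member further down could not be named. All 34 members are on these time lists and 24 are on no other, so that their number and direction over time are not independent of how they were named. Each of the 34 is on the time list made from a group of 9 dogs of the study. That group has the same label makeup as the 9 dogs whose counts follow their FPKM, and the labels do not say whether they are the same dogs.

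At the initial timepoint all 34 members were expressed, with a median over dogs of 3.24 FPKM for ESPL1 (separase, the protease that cuts cohesin) to 191.44 FPKM for SMC4 (a condensin ATPase). Of the 34, 6 had an initial median under 10 FPKM and 9 one above 50 FPKM. Summed over the 34 members, the level ran from 469.55 to 2188.76 FPKM with a median of 1457 at the initial timepoint, and from 364.95 to 2115.05 with a median of 1073 at 6 weeks. The ranges at the 2 timepoints overlapped almost completely. Dog 029 had the lowest initial level of 26 members and the lowest six-week level of 22, while dog 035 had the highest initial level of 14 members and dog 024 the highest six-week level of 14.

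The question put to each member was whether its level differed between the initial and six-week timepoints within dogs. The mean change in log2(FPKM+1), 6 weeks minus initial, was below 0 for 34 of 34 members, whereas it was below 0 for 51.3% of the 14257 genes tested. It ran from -0.68 (BUB1B) to -0.15 (CDC20) with a median of -0.43, against a median of -0.01 over all genes. None of the 34 passed an adjusted p of 0.05 with limma, and 0 of the 14257 genes did (0%). The lowest adjusted p of a member was 0.298. At an unadjusted p under 0.05 with limma, 28 of 34 members were lower at 6 weeks, a share of 82.4% beside 5.13% of all genes and 15.4% of the 2846 tested genes that carry a symbol from the time lists. This last share pools the time lists, and the share for the list that holds every member was not computed. In the deposited counts of the 9 dogs, edgeR called 0 of 34. At an unadjusted p under 0.05 in edgeR were 27 of 34 members and 1658 of 11510 genes, in either direction. DESeq2 called 9 of 34 lower, with 0.938% of 11510 genes called lower by DESeq2. The DESeq2 share among genes named from the time lists was not computed, so the calls cannot be separated from how the members were named.

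**Figure D1:**
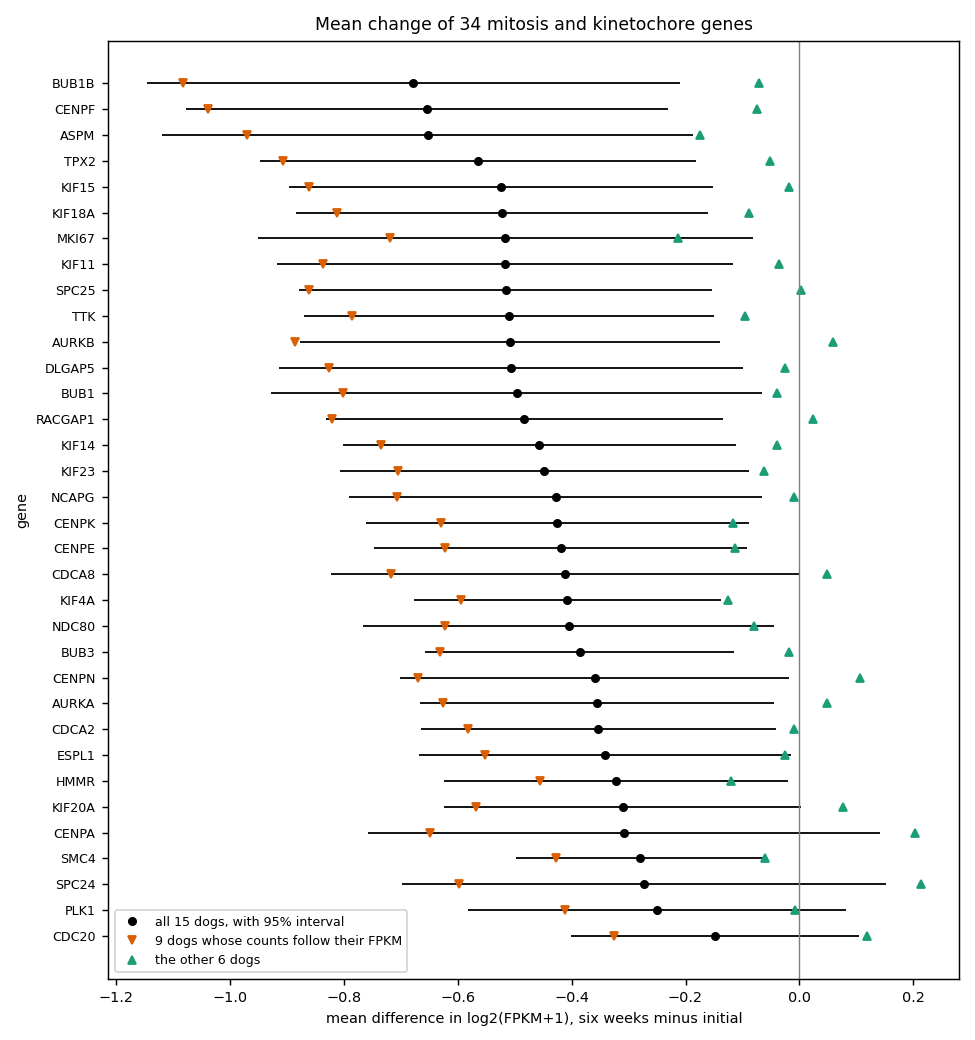
Mean difference in log2(FPKM+1), 6 weeks minus initial, for each of the 34 genes (x axis), with the limma 95% interval over 15 dogs as a bar and the separate means of 9 and 6 dogs as triangles. All 34 means over 15 dogs lie left of 0, the means of the 9 dogs lie from -1.08 to -0.33 and those of the other 6 dogs from -0.21 to 0.21.

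The change was also taken separately in the 9 dogs whose counts follow their FPKM and in the other 6. In the FPKM of the 9 dogs the median change over members was -0.71, with 34 of 34 below 0, 31 at an unadjusted p under 0.05 and 0 past the threshold in limma. In the other 6 dogs the median was -0.03, with 24 of 34 below 0, 0 at an unadjusted p under 0.05 and 0 past the threshold in limma. The difference between the sets of dogs, tested as an interaction chosen after the data were seen, was below 0 for all 34 members with a median of -0.70. Of these, 19 had an unadjusted p under 0.05 and 0 passed the threshold with limma, with a lowest adjusted p of 0.455 for AURKB. Of all 14257 genes, 2360 had an unadjusted p under 0.05 in the 9 dogs, 797 in the other 6 and 1478 for the difference. These counts hold both directions. The medians over all genes were -0.025, 0.031 and -0.045, respectively. The 6 dogs comprised 3 B-Cell, 1 T-Cell and 2 Unknown dogs. Each member was named from a list that ranks change over time in a group of 9 dogs with the label makeup of the 9 dogs here. The larger change in the 9 dogs, and its difference from the 6, cannot be separated from this naming.

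Among the 8 centromere and kinetochore genes the median change was -0.41. CENPF, a large kinetochore protein that accumulates in G2, was present at 18.6 to 191.1 FPKM with a median of 114.5 at the initial timepoint, and at 12.3 to 211.2 FPKM with a median of 67.5 at 6 weeks. Its level was lower in 11 of 15 dogs, the groups overlapped, and the log2 difference was -0.65 ± 0.20 (SE, n = 15 dogs, limma adjusted p = 0.298). SPC24, a subunit of the NDC80 complex that grips microtubules, had the smallest change of this role. Its initial levels were 3.0995 to 16.5 FPKM with a median of 8.84 and its six-week levels 1.53 to 16.6 FPKM with a median of 6.42, a log2 difference of -0.27 ± 0.20 (SE, n = 15 dogs, limma adjusted p = 0.589). CENPA, the histone H3 variant that marks the centromere, had a median of 10.4 FPKM (1.56 to 18.8) initially and 8.27 FPKM (0.993 to 26.2) at 6 weeks. It was lower in 8 of 15 dogs, the fewest of any member together with PLK1, and its log2 difference was -0.31 ± 0.21 (SE, n = 15 dogs, limma adjusted p = 0.559). NDC80, the subunit that names the complex, had a median of 33.8 FPKM (12.8 to 59.4) initially and 24.3 FPKM (9.14 to 52.5) at 6 weeks, with a log2 difference of -0.41. The other members of this role were close to these. SPC25, the partner of SPC24, had -0.52, CENPK and CENPN, of the constitutive centromere network, had -0.43 and -0.36, and the kinetochore motor CENPE had -0.42.

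The 10 kinases, checkpoint and anaphase genes had a median change of -0.40 and the widest spread between members. BUB1B (BubR1, a checkpoint protein) had the largest change of all 34. It was at 18.3 to 167.9 FPKM with a median of 116.7 initially and at 12.2 to 212.6 FPKM with a median of 73.3 at 6 weeks, lower in 11 of 15 dogs, with a log2 difference of -0.68 ± 0.22 (SE, n = 15 dogs, limma adjusted p = 0.305). CDC20, the activator that the checkpoint inhibits, had the smallest change. It was at 2.37 to 8.996 FPKM with a median of 4.94 initially and at 2.15 to 11.3 FPKM with a median of 4.36 at 6 weeks, a log2 difference of -0.15 ± 0.12 (SE, n = 15 dogs, limma adjusted p = 0.623). Since CDC20 was low, adding 1 to its FPKM understates its change more than that of BUB1B. AURKB, the kinase of the chromosomal passenger complex, was at 4.93 to 24.3 FPKM with a median of 15.8 initially and at 4.06 to 24.0 FPKM with a median of 10.3 at 6 weeks. It was lower in 12 of 15 dogs and in all 9 dogs whose counts follow their FPKM, with a log2 difference of -0.51 ± 0.18 (SE, n = 15 dogs, limma adjusted p = 0.305). BUB1, a checkpoint kinase, had a median of 20.8 FPKM (4.59 to 40.9) initially and 16.6 FPKM (3.05 to 38.2) at 6 weeks, with a log2 difference of -0.50. PLK1, a kinase with roles from mitotic entry to cytokinesis, had a median of 8.42 FPKM (4.27 to 28.2) initially and 6.21 FPKM (2.47 to 15.99) at 6 weeks, a log2 difference of -0.25. The remaining differences were -0.51 for the checkpoint kinase TTK, -0.41 for CDCA8 (borealin, a partner of AURKB), -0.39 for the checkpoint protein BUB3, -0.36 for the spindle pole kinase AURKA and -0.34 for ESPL1.

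**Figure D2:**
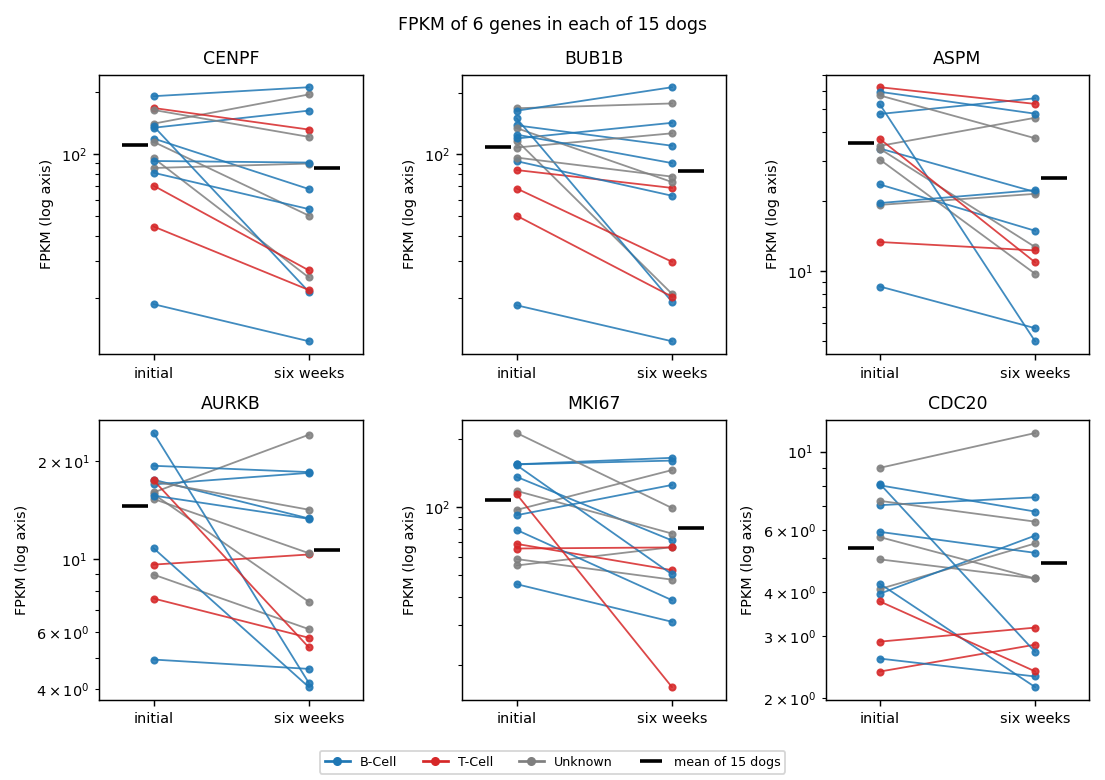
FPKM on a log axis for CENPF, BUB1B, ASPM, AURKB, MKI67 and CDC20 at the initial and six-week timepoints, with 1 line per dog coloured by label and a black bar for the mean of 15 dogs. The levels of the timepoints overlap in each panel, and the means were 110.3 and 85.4 FPKM for CENPF and 5.32 and 4.83 FPKM for CDC20.

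The 8 spindle and motor genes had the lowest median change of the roles, -0.52, and all 8 had an unadjusted p under 0.05 with limma. ASPM, a spindle pole protein, was at 8.59 to 62.2 FPKM with a median of 33.8 initially and at 4.98 to 55.8 FPKM with a median of 21.6 at 6 weeks, a log2 difference of -0.65 ± 0.22 (SE, n = 15 dogs, limma adjusted p = 0.305). HMMR, a spindle-binding protein and hyaluronan receptor, had the smallest change of this role, with a median of 56.0 FPKM (22.5 to 112.7) initially and 36.4 FPKM (16.8 to 89.5) at 6 weeks and a log2 difference of -0.32. KIF11 (Eg5), the kinesin that pushes spindle poles apart, had a median of 70.5 FPKM (16.6 to 150.4) initially and 49.5 FPKM (12.2 to 146.1) at 6 weeks, with a log2 difference of -0.52 ± 0.19 (SE, n = 15 dogs, limma adjusted p = 0.316). TPX2, which activates AURKA on the spindle, had -0.56. The kinesins KIF15, KIF18A and KIF4A had -0.52, -0.52 and -0.41, and DLGAP5, a microtubule-stabilising protein, had -0.51.

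The 4 cytokinesis genes had a median change of -0.45. RACGAP1, the GTPase-activating subunit of centralspindlin, was at 9.93 to 41.3 FPKM with a median of 28.3 initially and at 8.71 to 40.01 FPKM with a median of 19.02 at 6 weeks. It was lower in 12 of 15 dogs, with a log2 difference of -0.48 ± 0.17 (SE, n = 15 dogs, limma adjusted p = 0.305). KIF20A, a midzone kinesin, had a median of 10.8 FPKM (2.95 to 15.0) initially and 7.46 FPKM (2.71 to 17.4) at 6 weeks, with a log2 difference of -0.31. KIF23, the kinesin of centralspindlin, had -0.45, and KIF14, a midbody kinesin, had -0.46.

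The 4 genes of chromosome condensation and surface had a median change of -0.39. MKI67 was at 45.6 to 212.5 FPKM with a median of 97.1 initially and at 15.98 to 165.1 FPKM with a median of 66.5 at 6 weeks, lower in 9 of 15 dogs, with a log2 difference of -0.52 ± 0.21 (SE, n = 15 dogs, limma adjusted p = 0.330). SMC4 had the highest level of all members and the narrowest interval, with a median of 191.4 FPKM (109.3 to 291.4) initially and 140.3 FPKM (91.4 to 255.9) at 6 weeks and a log2 difference of -0.28 ± 0.10 (SE, n = 15 dogs, limma adjusted p = 0.316). NCAPG, a condensin subunit, had a median of 54.9 FPKM (15.6 to 132.7) initially and 32.4 FPKM (13.03 to 109.8) at 6 weeks and a log2 difference of -0.43. CDCA2, which brings a phosphatase to chromosomes, had -0.35.

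The 9 members that DESeq2 called lower in the counts of 9 dogs were spread over 4 of the 5 roles. They were CENPF and SPC25 of the kinetochore, AURKB, BUB1B and BUB3 of the kinases and checkpoint, KIF15 and TPX2 of the spindle, and KIF14 and RACGAP1 of cytokinesis. BUB1B fell by 0.998 on the log2 scale (DESeq2 adjusted p = 0.0409), CENPF fell by 0.97 (DESeq2 adjusted p = 0.0199), AURKB fell by 0.89 (DESeq2 adjusted p = 0.0170) and RACGAP1 fell by 0.79 (DESeq2 adjusted p = 0.0169). None of the 9 passed the threshold in edgeR or in limma. All 9 were named from a list ranked by change over time, so these calls are not independent of the naming.

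The median change over the members ran from -1.88 to 0.42 between dogs, a wider range than that of the means between genes, from -0.68 to -0.15. In 12 of 15 dogs the median change over the 34 members was below 0, and in 5 dogs (025, 029, 031_032, 033 and 034) all 34 members were lower at 6 weeks. Dog 034 had the lowest median, -1.88, with 32 of 34 members lower by more than 2-fold. Dog 025 had -1.24 with 22 such members, dog 036 had -1.08 with 19, and dog 031_032 had -1.07 with 19. At the other end, dog 024 had a median of 0.42 with all 34 members higher, dog 027 had 0.24 with 33 higher and dog 026 had 0.24 with 32 higher. The 8 dogs in between had medians of -0.71 (033), -0.44 (003), -0.33 (029), -0.31 (035), -0.22 (038), -0.17 (028), -0.06 (030) and -0.04 (037). Dog 034 had the lowest change of 27 members, and dog 024 the highest change of 20.

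**Figure D3:**
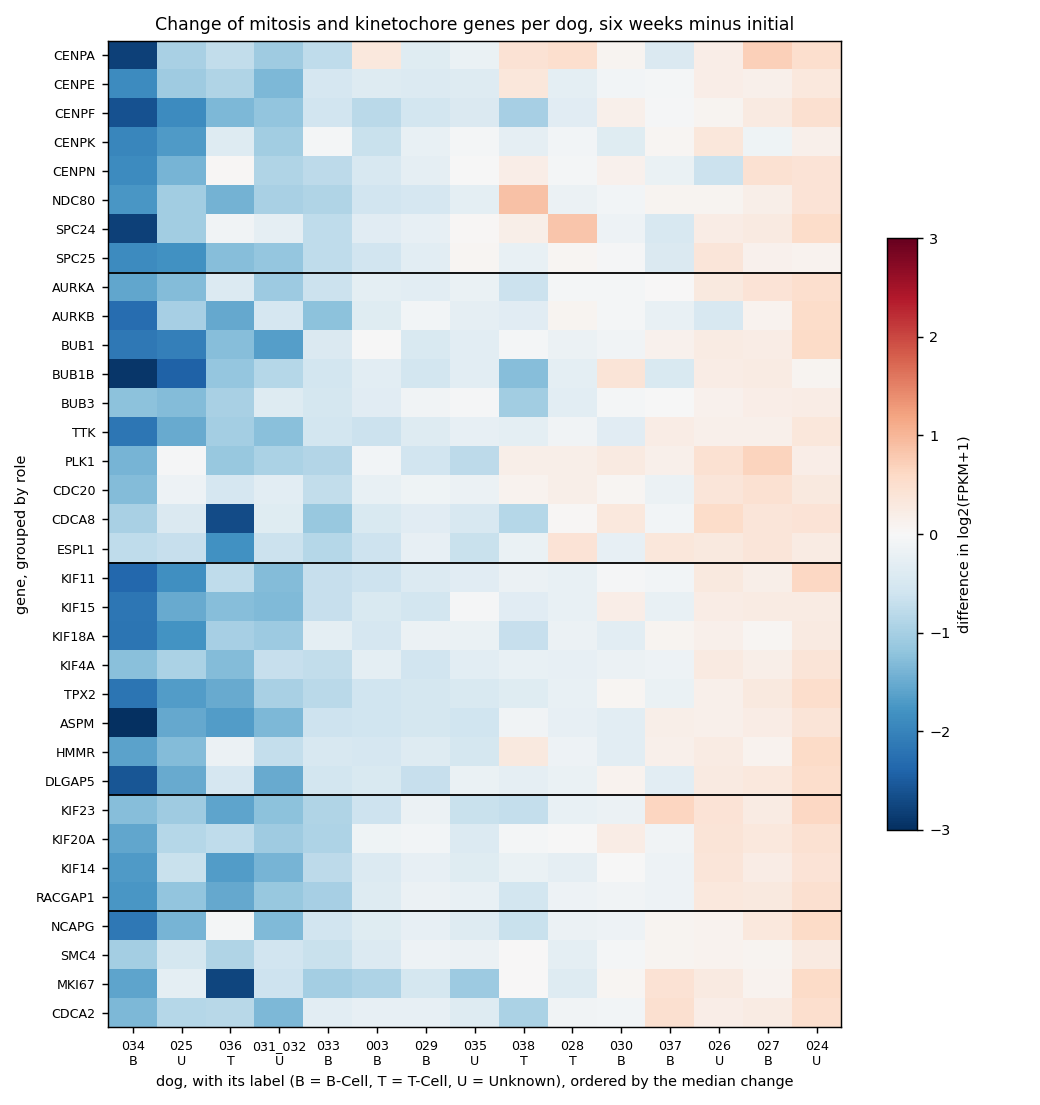
Difference in log2(FPKM+1), 6 weeks minus initial, for 34 genes (y axis, grouped by role with black lines between roles) in 15 dogs (x axis, ordered by their median change), with blue for lower and red for higher at 6 weeks. Dogs 034, 025, 036 and 031_032 at the left have medians from -1.88 to -1.07, and dogs 026, 027 and 024 at the right have medians of 0.24, 0.24 and 0.42.

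The members moved together across dogs. Over the 561 pairs of members, the median Pearson correlation of the change over the 15 dogs was 0.82, with a range from 0.20 to 0.97. These values describe the same 30 libraries and share their depth and scaling. The members most like the median of the other 33 were TPX2 (r = 0.98) and KIF15 (r = 0.98), and the least like it were CDCA8 (r = 0.63), MKI67 (r = 0.69) and ESPL1 (r = 0.72). These last 3 had their lowest six-week level (CDCA8 0.509 FPKM, ESPL1 0.461 FPKM and MKI67 15.98 FPKM) in dog 036, the shallowest library.

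Markers of other cell types were followed beside the members, as far as they had an ID, which held for 3 of 12 B-cell, 9 of 15 T-cell, 5 of 11 macrophage, 2 of 5 neutrophil, 6 of 9 stroma and endothelium and 0 of 3 erythroid markers. Across 15 dogs, 9 of 9 T-cell markers and 5 of 5 macrophage markers had a mean change above 0, with medians of 0.69 and 0.75, and 3 of 3 B-cell markers had one below 0, with a median of -0.26. Markers of stroma and endothelium (6 of 6 above 0, median 0.39) and of neutrophils (2 of 2 above 0, median 0.60) were also higher on average. None of these passed the threshold with limma, where the unadjusted p was under 0.05 for 5 T-cell, 3 macrophage, 3 stroma, 0 neutrophil and 0 B-cell markers. Of all 14257 genes, 6929 had a mean change above 0, 7320 had one below 0, and 1091 were higher at an unadjusted p under 0.05 with limma. The markers were named from the same lists ordered by p-value as the members, so their direction is not independent of the naming. The summed level of the 5 macrophage markers ran from 7.95 to 104.1 FPKM initially and from 5.96 to 328.9 FPKM at 6 weeks, that of the 9 T-cell markers from 21.3 to 1014 and from 30.4 to 788.4 FPKM, and that of the 3 B-cell markers from 2.78 to 283.2 and from 7.83 to 252.4 FPKM. The 2 neutrophil markers summed to 0.11 to 23.5 FPKM initially and to 0.42 to 154.8 FPKM at 6 weeks, and the 6 stroma markers to 4.76 to 85.8 and 1.63 to 77.7 FPKM.

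In the 4 dogs with a median member change below -1, the mean change of the macrophage markers was between 0.88 and 3.31, while in the other 11 dogs it was between -0.84 and 1.88. In dogs 025 and 034 the T-cell markers were higher by 3.66 and 2.38 and the B-cell markers lower, at -1.71 and -1.57, so that at 6 weeks the mean T-cell marker level (5.43 and 5.46) was above the mean B-cell marker level (4.27 and 4.26). In dog 036, labelled T-Cell, the T-cell markers changed by -1.79 and the B-cell markers by 3.46. In dog 031_032 the B-cell and T-cell markers changed by 0.24 and 0.67. Dog 003 had T-cell markers higher by 2.17 and a member median of -0.44. Dog 038 had macrophage markers higher by 1.88 and a member median of -0.22. Dog 033 had a member median of -0.71 with B-cell, T-cell and macrophage markers at -0.81, -0.45 and -0.84 and a median over all genes of -0.41. Under 0.1 FPKM lay 4 of 270 values of the T-cell markers, 1 of 150 of the macrophage markers and 0 of 90 of the B-cell markers. The part of cell makeup in the members' change was not tested.

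**Figure D4:**
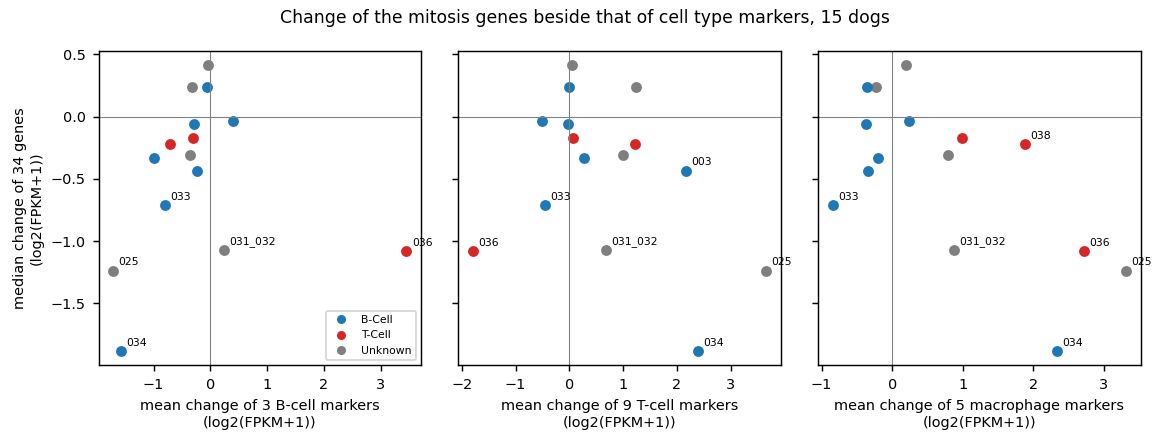
Median change of the 34 genes in log2(FPKM+1) (y axis) against the mean change of 3 B-cell, 9 T-cell and 5 macrophage markers (x axes) for 15 dogs, coloured by label, with dogs at the extremes named. Dogs 034, 025 and 036 combine member medians of -1.88, -1.24 and -1.08 with macrophage marker changes of 2.34, 3.31 and 2.72. Dog 031_032 has a member median of -1.07 with a macrophage marker change of 0.88, and dog 038 has -0.22 with 1.88.

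Other genes of the cell cycle are given for comparison. Over all genes, 51.3% had a mean change below 0 and 5.13% were lower at an unadjusted p under 0.05 with limma. The genes compared here were named from the same lists ordered by p-value as the members. Their number and direction are therefore not independent of the naming either. Of 40 further mitotic genes with an ID, 39 had a mean change below 0, with a median of -0.39 and 30 lower at an unadjusted p under 0.05 with limma, led by KNL1 (-0.60) and DIAPH3 (-0.56). All 12 S-phase genes, which act in DNA replication and not in mitosis, were below 0, with a median of -0.42 and 10 lower at an unadjusted p under 0.05, led by MCM2 (-0.47), PCNA (-0.45) and MCM6 (-0.45). The median change of the 6 regulators of mitotic genes was -0.20 (5 of 6 below 0, 1 at an unadjusted p under 0.05), with RBL1 at -0.35, FOXM1 at -0.34 and MYBL2 at -0.27. The 7 subunits of the anaphase-promoting complex and cohesin that most cells express had a median of -0.22 (6 of 7 below 0, 4 at an unadjusted p under 0.05), with SMC1A at -0.31, ANAPC1 at -0.29 and RAD21 at -0.23. None of these genes passed the threshold with limma.

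By label, 0 of 34 members passed the limma threshold in the B-Cell, T-Cell or Unknown dogs (0% of 14257 genes in each). In the 7 B-Cell dogs the median change was -0.46 with 34 of 34 below 0 (49.2% of all genes) and 3 lower at an unadjusted p under 0.05 (2% of all genes). It ran from -0.69 (ASPM) to -0.22 (CDCA2). Without dog 034 the median was -0.23. The count of members at an unadjusted p under 0.05 was 17 without dog 027 and 8 without dog 030 or 037. It was 2 without dog 029, 1 without dog 003 and 0 without dog 033 or 034. Of all 14257 genes, 847 had such a p without dog 027, 489 without dog 030 and 351 without dog 037, in either direction. In the other fits it was 233 (without dog 034) to 711 (without dog 033). In the 5 Unknown dogs the median was -0.37 with 33 of 34 below 0 (44.3% of all genes), the exception being CDC20 at 0.00, and 0 lower at an unadjusted p under 0.05 (0.526% of all genes). Without dog 025 it was -0.19, and without dog 031_032 it was -0.23. Without dog 024 it was -0.59, with 7 members and 919 of all 14257 genes at an unadjusted p under 0.05 in either direction. In the 3 T-Cell dogs the median was -0.49 with 31 of 34 below 0 (56.8% of all genes). Of the 34, 4 were lower at an unadjusted p under 0.05, a share near the 10.5% of all genes. SPC24 (0.31), CENPA (0.06) and CENPN (0.06) were above 0. Without dog 036 the T-Cell median was -0.19 with 0 members at an unadjusted p under 0.05. Without dog 038 it was -0.60 with 3 members, and without dog 028 it was -0.70 with 7. In these fits 1075, 2575 and 4210 of all 14257 genes, respectively, had an unadjusted p under 0.05 in either direction. Each time this was a larger share than that of the members.

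The change of the cell type markers was taken for each label as well. In the T-Cell dogs the median change was 1.90 for the macrophage markers (5 of 5 higher at an unadjusted p under 0.05 with limma), 1.26 for those of stroma and endothelium (4 of 6), 0.71 for the B-cell markers (1 of 3), 0.65 for the neutrophil markers (0 of 2) and -0.11 for the T-cell markers (0 of 9). In the Unknown dogs it was 1.39 for the T-cell markers (6 of 9), 0.91 for the macrophage markers (2 of 5), 0.95 for the neutrophil markers (0 of 2), 0.45 for the stroma markers (0 of 6) and -0.45 for the B-cell markers (0 of 3). In the B-Cell dogs it was 0.61 for the T-cell markers, 0.15 for the macrophage markers, 0.33 for the neutrophil markers, 0.07 for the stroma markers and -0.50 for the B-cell markers, with 0 at an unadjusted p under 0.05. None of these markers passed the threshold with limma, and their part in the change of the members was not tested. Of all 14257 genes, 1361 were higher at an unadjusted p under 0.05 with limma in the T-Cell dogs, 575 in the Unknown dogs and 263 in the B-Cell dogs.

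The mean changes ranged most widely between genes in the 3 T-Cell dogs, which is also the label with the fewest dogs. CDCA8 went from 2.59 to 2.69 FPKM in dog 028, from 8.74 to 0.509 FPKM in dog 036 and from 5.71 to 2.74 FPKM in dog 038, a mean log2 difference of -1.17 ± 0.41 (SE, n = 3 dogs, limma adjusted p = 0.152). Without dog 028 it passed the threshold (-1.77, limma adjusted p = 0.0232), alone among the 34 members, while 10.5% of all genes did. MKI67 went from 68.7 to 52.6 FPKM in dog 028, from 113.8 to 15.98 FPKM in dog 036 and from 65.5 to 66.3 FPKM in dog 038, a mean log2 difference of -1.04 ± 0.46 (SE, n = 3 dogs, limma adjusted p = 0.223). For both genes dog 036 had the largest change of the 3. SPC24 went from 8.84 to 16.6 FPKM in dog 028, from 7.70 to 7.12 FPKM in dog 036 and from 5.14 to 5.98 FPKM in dog 038.

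In the Unknown dogs the change differed in sign between dogs. BUB1B went from 116.7 to 20.9 FPKM in dog 025 and from 134.2 to 73.3 FPKM in dog 031_032, against 167.9 and 177.2 FPKM in dog 024, 108.0 and 126.7 FPKM in dog 026 and 96.4 and 77.9 FPKM in dog 035. Its mean log2 difference was -0.66 ± 0.40 (SE, n = 5 dogs, limma adjusted p = 0.952). Dogs 024 and 026 had 34 and 32 of 34 members higher, and dogs 025, 031_032 and 035 had 34, 34 and 32 of 34 lower.

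The difference in change between T-Cell and B-Cell dogs was below 0 for 18 members and above 0 for 16, with a median of -0.01. None of the 34 passed the threshold (limma, 0% of all genes, 0 members at an unadjusted p under 0.05). With each library divided by its upper quartile the median was 0.07, so no direction is given. Without dogs 029 and 038 it was below 0 for 24 of 34 members, with a median of -0.18 and 0 past the threshold, and leaving out single dogs moved the median between -0.26 (without dog 034) and 0.30 (without dog 036). The difference ran from -0.83 (CDCA8) to 0.95 (SPC24), and the lowest adjusted p of a member was 0.373 with limma.

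At the initial timepoint the T-Cell dogs were lower than the B-Cell dogs for 30 of 34 members (52.6% of all genes), with a median of -0.30. None of the 34 passed the threshold with limma (0.344% of all genes did), and 1, CDC20, was lower at an unadjusted p under 0.05 (12.1% of all genes). CDC20 was at 2.37, 3.75 and 2.89 FPKM in dogs 028, 036 and 038, against 2.58 to 8.10 FPKM with a median of 5.92 in the B-Cell dogs. The log2 difference was -0.68 ± 0.30 (SE, n = 3 and 7 dogs, limma adjusted p = 0.203), with the SE from a spread shared by all labels. NCAPG was at 36.7, 28.5 and 29.3 FPKM in the T-Cell dogs, against 15.6 to 86.9 FPKM with a median of 60.8 in the B-Cell dogs, and the lowest B-Cell value was that of dog 029. Without dog 038 the median over members was -0.07, without dog 036 it was -0.51, and without dog 029 it was -0.51 with 1 member past the threshold, BUB1B (9.12% of all genes).

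Leaving out both dogs whose markers go against their label left 2 T-Cell and 6 B-Cell dogs and 2 members past the threshold, with 24.2% of all genes called. KIF14 was at 41.4 and 40.1 FPKM in T-Cell dogs 028 and 036, against 10.6 to 20.6 FPKM in the 6 B-Cell dogs. It was higher by 1.17 on the log2 scale (limma adjusted p = 0.0460). BUB1B was at 83.8 and 68.1 FPKM, against 92.6 to 163.3 FPKM in the 6 B-Cell dogs, a log2 difference of -0.77 (limma adjusted p = 0.0334). For both genes the T-Cell and B-Cell values did not overlap. The same held for other members, such as CDC20 and NCAPG, whereas the values of MKI67 overlapped. How many members, and what share of all genes, separate in this way was not counted. The share of members called, 2 of 34, was below that of all genes. In the 5 Unknown dogs KIF14 was at 8.56, 11.5, 24.9, 26.3 and 27.4 FPKM.

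**Figure D5:**
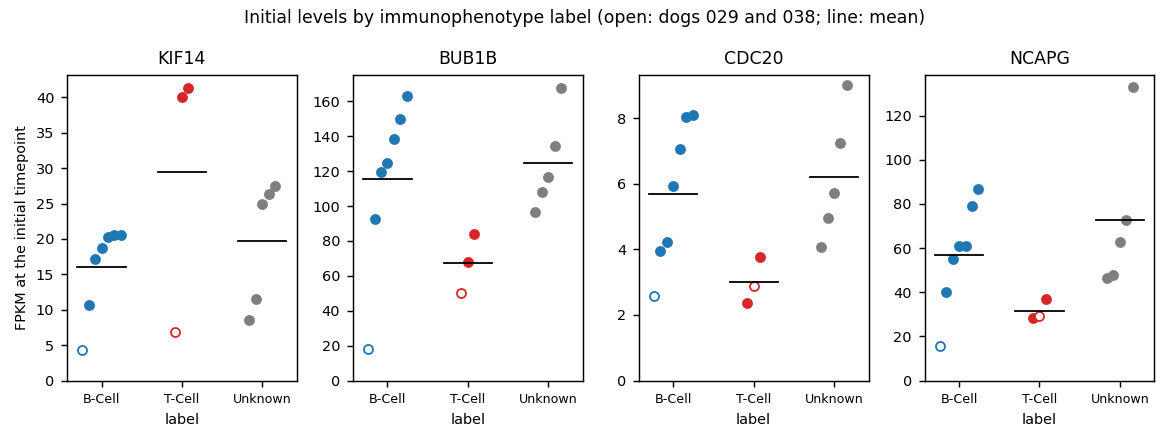
FPKM at the initial timepoint for KIF14, BUB1B, CDC20 and NCAPG by immunophenotype label, with 1 point per dog, open points for dogs 029 and 038 and a line at the mean. KIF14 lies at 41.4 and 40.1 FPKM in T-Cell dogs 028 and 036 and at most at 20.6 FPKM in the B-Cell dogs.

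At the six-week timepoint the T-Cell dogs were lower for 26 of 34 members (59.0% of all genes), with a median of -0.29. None of the 34 passed the threshold with limma (0% of all genes), and 1 was lower at an unadjusted p under 0.05 (5.56% of all genes). The median was -0.10 without dog 038, -0.11 without dog 030, -0.13 without dog 027, -0.45 without dog 034, -0.54 without dog 029 and -0.60 without dog 028. Without both dogs 029 and 038 it was -0.31, with 25 of 34 members below 0 and 0 past the threshold (0.0772% of all genes). The lowest value was that of CDCA8, -1.13, and the highest that of SPC24, 0.56. KIF14, at 34.2, 11.8 and 5.87 FPKM in dogs 028, 036 and 038, was no longer above all B-Cell dogs in dog 036, since dogs 003, 027, 030 and 037 had 13.7, 20.4, 20.2 and 18.4 FPKM.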

How the data were processed

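The authors made the deposited FPKM matrix and the deposited gene counts from RNA-seq reads aligned to CanFam3.1. Per the labels, HISAT2 2.1.0 and StringTie 1.3.3 were among the tools named in the submitters' processing notes. Both tables list Ensembl gene IDs without symbols, so symbols were taken from the leading 1998 or 1999 genes of each of 4 ranked gene lists of the study (5086 IDs in all), and members without a symbol there were left out. The members and gene lists were chosen with earlier results of these data known. The 17 genes given in full followed a rule by role and size of change, with 9 of them chosen by name. Further values were picked after they were seen.

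Genes with a mean above 1 FPKM were tested on log2(FPKM + 1), with a pseudocount of 1, in limma 3.58.1 (R 4.3.3) with a mean-variance trend and dog as a block, two-sided, with Benjamini-Hochberg adjustment over 14257 genes and a threshold of 0.05. Fold changes on this scale understate low genes. Changes by label came from 1 fit, so their SEs use a spread shared by all 15 dogs. Comparisons between labels at 1 timepoint had no block and also shared the spread over all labels. Libraries were paired because they come from the same dog, and the deviations of the 2 libraries correlated above 0.1 in 13 of 15 dogs (0.08 in dog 025 and -0.06 in dog 036). The samples of dog 031_032 carry unequal numbers in the labels and were paired by elimination. Counts of 9 dogs, chosen by a Spearman correlation above 0.5 between counts and FPKM, were tested with edgeR 4.0.16 and DESeq2 1.42.0. Alternatives covered pseudocount, filter, scaling, block, tool and leaving out each dog. RefSeq sequences of the members were not used here. Figures were drawn with matplotlib 3.10.9.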

Additional observations from a re-analysis of the deposited data

Results flagged for a closer look

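Of 102 checks for a value far from the rest of its label group, 15 found one. Chance flags about 1 in 20 groups, and the members move together, so these are not independent. In the B-Cell dogs, dog 034 stood apart at the low end in the log2 change of ASPM (-3.16), BUB1B (-2.91), CENPA (-2.81), SPC24 (-2.79), CENPF (-2.62), KIF11 (-2.36), NCAPG (-2.15), BUB1 (-2.14) and HMMR (-1.61). The next lowest B-Cell dog was at -0.63 for ASPM, -0.55 for BUB1B and -0.81 for CENPF. Dog 034 also had T-cell markers higher by 2.38 and macrophage markers higher by 2.34 at 6 weeks.

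Dog 029 stood apart at the low end of the initial log2(FPKM+1) of the B-Cell dogs for CENPF (4.29), BUB1B (4.27), BUB1 (2.48), KIF20A (1.98) and CENPA (1.354). The next lowest dog was at 6.36 for CENPF and 6.55 for BUB1B. Its T-cell markers were above its B-cell markers in the same library. In that library the mean log2(FPKM+1) of the macrophage markers (4.25) and of the stroma and endothelium markers (3.42) was the highest of the initial libraries. In the Unknown dogs, dog 026 was lowest in initial AURKB, at 3.32 beside 4.03 for the next.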

How the results depend on the processing

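The direction of the median change in all dogs held under each scaling, filter, pseudocount and left-out dog. It ran from -0.35 (without dog 034) to -0.54 (libraries rescaled to the same total). The other tools were run only on the counts of 9 dogs. There the median was -0.68 with DESeq2 and -0.98 with edgeR with no filter, where the median over all genes was 0.34. In the FPKM of the 6 dogs whose counts do not follow their FPKM it was -0.03. Past the threshold were 0 members, with these exceptions. A filter at a mean of 0.1 FPKM gave 2 lower members (CENPF and KIF4A), with 3086 of 28603 genes called and a median over all genes of 0.12. DESeq2 on the counts of 9 dogs gave 9 lower. Without dogs 029 and 038, the initial T-Cell minus B-Cell comparison gave 1 lower and 1 higher. Leaving out single dogs gave 0 to 1 lower in the T-Cell dogs (1 without dog 028, with 1491 of 14257 genes called) and 0 to 1 lower in the initial comparison of labels (BUB1B, -0.96, limma adjusted p = 0.0237, without dog 029, with 1300 of 14257 genes called). In the FPKM of the 6 other dogs, 6 of the 17 genes given in full changed sign: SPC24 (0.21), CENPA (0.20), CDC20 (0.12), KIF20A (0.076), AURKB (0.059) and RACGAP1 (0.023). Without the replicate block for the pairing by dog, the median stayed at -0.43 with 0 members called. At an unadjusted p under 0.05 were 2 members, not 28, and 523 of all 14257 genes, not 1823, in either direction. Rescaling to the same total moved the T-Cell median from -0.49 to -0.75 while that over all genes went from -0.09 to -0.32. The cause of these differences was not tested. FPKM hold no counts, so depth limits were not computed.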
